A study of Mus musculus with 24 samples.

Results

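The 8 genes described here encode the cyclin D–CDK4/6 kinases and the inhibitors that bind them: the D cyclins Ccnd1, Ccnd2 and Ccnd3, the kinases Cdk4 and Cdk6, and the CIP/KIP inhibitors Cdkn1a (p21), Cdkn1b (p27) and Cdkn1c (p57). They were chosen by name for their place in cell cycle entry and exit, with earlier results of these data known. All 8 of the 8 were found, each as 1 row among the 51912 genes of the normalized expression table. The RNA was taken from dissected archicortex (ARK), the medial edge of the mouse telencephalon that forms the hippocampus and the cortical hem, in embryos of a mixed C57BL/6J;MF1 strain, and the 24 libraries fall into 6 groups of 4. At E13.5 there were Sox9fl/fl;Sox1Cre mutants (libraries A1 to A4) with Sox9+/+;Sox1Cre controls (A5 to A8), and Sox9fl/fl;NestinCre mutants (A17 to A20) with Sox9+/+;NestinCre controls (A21 to A24). At E12.5 there were Sox9fl/fl;Sox1Cre mutants (A9 to A12) with Sox9+/+;Sox1Cre controls (A13 to A16). The controls carried the Cre as well, so that the groups compared differ in the floxed Sox9 alleles and not in the Cre. Sox1Cre acts throughout the ARK neuroepithelium, whereas NestinCre acts later, mainly in the dentate neuroepithelium, and leaves most of the cortical hem unrecombined. The dissections also held meninges, vessels and blood cells, as their markers show. The question asked was how loss of Sox9, a SoxE transcription factor of neural stem cells and glia, altered the transcriptome of this tissue.

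D cyclins are made in response to growth signals and bind CDK4 or CDK6. The complex phosphorylates the retinoblastoma protein, which releases E2F factors and lets a progenitor pass from G1 into DNA replication. CIP/KIP proteins bind cyclin–CDK complexes, block CDK2 and accompany the exit of a cell from the cycle. In the embryonic cortex Ccnd1 and Ccnd2 are the D cyclins of dividing progenitors, p27 and p57 accumulate in cells that leave the cycle to become neurons, and p21 is best known as a target of the p53 family. Much of this control acts on protein stability and on binding between the proteins, which RNA levels do not show.

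The shallowest library held 16163560 reads on genes, the deepest 49445219 and the median one 23016925, and the lowest value of any member was 1085 normalized counts (Cdkn1a in A1). The values below are normalized counts, which are whole reads divided by 1 size factor per library. Replicate libraries differed by more than counting error in every pair (chi-square over its degrees of freedom at least 8.24). The labels do not say whether the 4 libraries of a group came from separate embryos or litters, and p-values measure the spread between these libraries only. Sox9 checked the labels. It stood at 2785, 1733, 2593 and 1928 (A9 to A12) in the E12.5 mutants and at 4391, 5265, 4237 and 4194 (A13 to A16) in their controls, a log2 difference of -1.02 ± 0.12 (SE; limma adjusted p = 6.28e-05). At E13.5 the log2 difference was -0.74 ± 0.12 in Sox1Cre mutants (adjusted p = 0.0021) and -0.71 ± 0.12 in NestinCre mutants (adjusted p = 0.0297, limma), and no mutant library reached the lowest control of its own comparison. The floxed allele keeps its first exon after recombination, so reads on the gene are not lost altogether. How much of the remaining signal came from that exon and how much from unrecombined cells was not tested.

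A few libraries stood apart from the rest of their group. A18, a NestinCre mutant, held 683 summed normalized counts of 8 ventral telencephalic markers (Dlx, Gsx2, Nkx2-1, Lhx6 and Gad genes), while the highest of the other 23 libraries held 115. A1, a Sox1Cre mutant at E13.5, held the least choroid plexus signal of its group, 7935 over 7 markers against 66525 or more in A2, A3 and A4. Xist, the RNA of the inactive X chromosome, was present in all 4 E12.5 Sox1Cre controls (3659.7 to 4451 normalized counts) and close to 0 in all 4 E13.5 Sox1Cre controls (1.07 to 2.26). Embryo sex and age therefore cannot be told apart in the Sox1Cre controls, and every comparison of E12.5 with E13.5 also compares separate dissections. Among the Sox1Cre mutants 2 of 4 libraries held Xist at each age. The comparisons of Sox1Cre mutants with controls were therefore also unbalanced in embryo sex. Xist was held by 2 of 4 mutants and 4 of 4 controls at E12.5, and by 2 of 4 and 0 of 4 at E13.5. In the NestinCre line 2 of 4 mutants and 1 of 4 controls held it.

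Positions are given in the GRCm38 build. Ccnd2 (chr6:127125162-127152193, minus strand) and Cdkn1b (chr6:134920401-134925513, plus strand) are on chromosome 6, and Ccnd1 (chr7:144929931-144939925, minus strand) and the imprinted gene Cdkn1c (chr7:143458339-143461050, minus strand) on chromosome 7. Cdkn1a (chr17:29090976-29100727, plus strand) and Ccnd3 (chr17:47505051-47599691, plus strand) are on chromosome 17, Cdk4 (chr10:127063534-127067920, plus strand) on chromosome 10 and Cdk6 (chr5:3341485-3531008, plus strand) on chromosome 5. Exons of a gene on the opposite strand overlap those of 7 members, and without a stated strand setting reads in the overlap cannot be assigned. The partners with the most signal were Tspan31 beside Cdk4 (mean 2471 normalized counts over 24 libraries), Bysl beside Ccnd3 (1339.7) and LTO1 beside Ccnd1 (339.9).

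RefSeq promoter windows (GRCm38.p6) matched 5 of the 8 members, Ccnd3, Cdk4, Cdk6, Cdkn1a and Cdkn1b. The 250 bases before a start site are shown for 2 of them because RNA levels of genes tied to their known inputs are given further on. p21 is the classical p53 target, and the first of its windows, chr17:29090729-29090978 on the plus strand, holds a p53 family full site, a pair of adjoining half-sites, with 1 mismatch, its first base 51 bases before the start site. Such a site, with at most 1 mismatch, is in 25 of all 32851 windows (0.0761%) and in none of the other 6 windows of members. Cdk4 is a known target of MYC proteins, which bind CACGTG, and its window, chr10:127063285-127063534 on the plus strand, holds CACGTG 4 times. CACGTG reads the same on both strands and occurs at least once in 6.02% of windows and at least 4 times in 0.0213%. The core AACAAT of SOX factor motifs, searched on both strands as AACAAT and ATTGTT, was in the window of Cdk6 and not in the other 6, beside 9.42% of all windows. A match is a run of letters and not a site shown to be bound. Capitals mark the p53 family site in the first sequence and CACGTG in the second.
Cdkn1a: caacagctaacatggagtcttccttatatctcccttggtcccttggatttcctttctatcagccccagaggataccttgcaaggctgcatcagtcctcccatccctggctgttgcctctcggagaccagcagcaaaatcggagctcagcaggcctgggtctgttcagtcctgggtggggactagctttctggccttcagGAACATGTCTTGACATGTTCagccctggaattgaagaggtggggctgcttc
Cdk4: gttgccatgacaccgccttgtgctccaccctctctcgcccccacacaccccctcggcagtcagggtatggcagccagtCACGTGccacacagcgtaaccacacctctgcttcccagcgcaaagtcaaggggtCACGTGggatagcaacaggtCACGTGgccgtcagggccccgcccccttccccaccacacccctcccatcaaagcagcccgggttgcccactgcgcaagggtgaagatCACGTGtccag

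Levels can be set beside each other only per length, and here each normalized count was divided by the bases covered by the gene's exons, in kilobases. On that scale Cdk4 was the highest member at 5029.6 ± 326 (SD, n = 24) normalized counts per kilobase, and its partner kinase Cdk6 the lowest at 122 ± 18.7. Among the cyclins Ccnd2 stood at 4020.3 ± 1056, Ccnd1 at 602 ± 239 and Ccnd3 at 288 ± 42.8. Among the inhibitors Cdkn1c stood at 1414 ± 173, Cdkn1b at 528 ± 50.6 and Cdkn1a at 507 ± 114. Ccnd2 was thus the highest of the 3 D cyclins and Cdk4 the higher of the 2 kinases per kilobase. With the longest transcript as the length in place of all exons, Cdk4, Ccnd2, Cdkn1c and Cdk6 kept their places and the 4 members between them changed places, so the order of Ccnd1, Cdkn1b, Cdkn1a and Ccnd3 was not resolved.

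Ccnd2 made up 72.5% ± 6.51 (SD, n = 4) of the D cyclin signal per kilobase in E12.5 Sox1Cre controls and 86.3% ± 3.02 in E13.5 Sox1Cre controls. The share of Ccnd1 was 20.04% ± 6.14 at E12.5 and 8.9% ± 2.56 at E13.5, and that of Ccnd3 was 7.51% ± 0.825 and 4.77% ± 0.731. Ccnd2 made up 72.1% ± 3.93 in E12.5 mutants, 85.5% ± 5.47 in E13.5 Sox1Cre mutants and 83.97% ± 8.29 in NestinCre mutants, the last beside 84.6% ± 5.49 in NestinCre controls. A14, A18 and A22 had the largest Ccnd1 share of their groups.

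**Figure D1:**
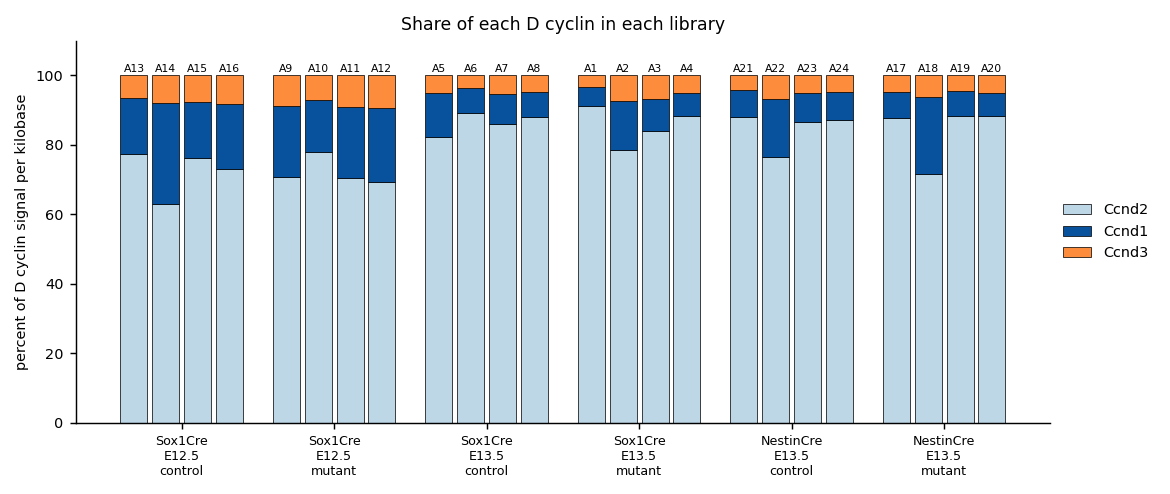
Percent of the summed D cyclin signal per kilobase of exon held by Ccnd2, Ccnd1 and Ccnd3 in each of the 24 libraries, grouped by Cre line, age and genotype. Ccnd2 is the largest part of every bar, and the Ccnd1 part is wider at E12.5 and in A14, A18 and A22.

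The members also differed in how far replicate libraries spread. The within-group coefficient of variation, averaged over the 6 groups, was 29.98% for Ccnd1 and 20.5% for Ccnd2, against a median of 7.84% over the 11830 genes with a mean of at least 100. Ccnd1 varied more than 96% of those genes and Ccnd2 more than 89.8%. Cdkn1b and Cdk4 were the steadiest members, at 5.57% and 5.85%, with Ccnd3 at 8.82%, Cdkn1c at 10.8%, Cdk6 at 13.4% and Cdkn1a at 14.7%. A change of a given size was therefore hardest to see in Ccnd1 and Ccnd2 and easiest in Cdkn1b and Cdk4.

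Loss of Sox9 was followed by no called change in any of the 8 members, in either Cre line or at either age. limma called 0 of 8 in Sox1Cre mutants at E12.5, where 0.723% of all 16454 genes tested were called, 0 of 8 in Sox1Cre mutants at E13.5 (0.924% of all genes) and 0 of 8 in NestinCre mutants (0.0669% of all genes). With so few genes called, 0 of 8 is what the share over all genes would give for 8 genes. At an unadjusted p under 0.05 each comparison held 1 of 8 members, beside 2217 of the 16454 genes at E12.5, 1932 (11.7%) in E13.5 Sox1Cre mutants and 1064 (6.47%) in NestinCre mutants, so that 1 of 8 is again near the share over all genes. edgeR and DESeq2 on the recovered reads called 0 of 8 in all 3. The median log2 difference over the 8 members was -0.021 at E12.5, -0.055 in E13.5 Sox1Cre mutants and 0.010 in NestinCre mutants, beside 0.0020, -0.0046 and -0.0021 over all genes. In bulk RNA, fewer cells of a type and less RNA per cell cannot be told apart.

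**Figure D2:**
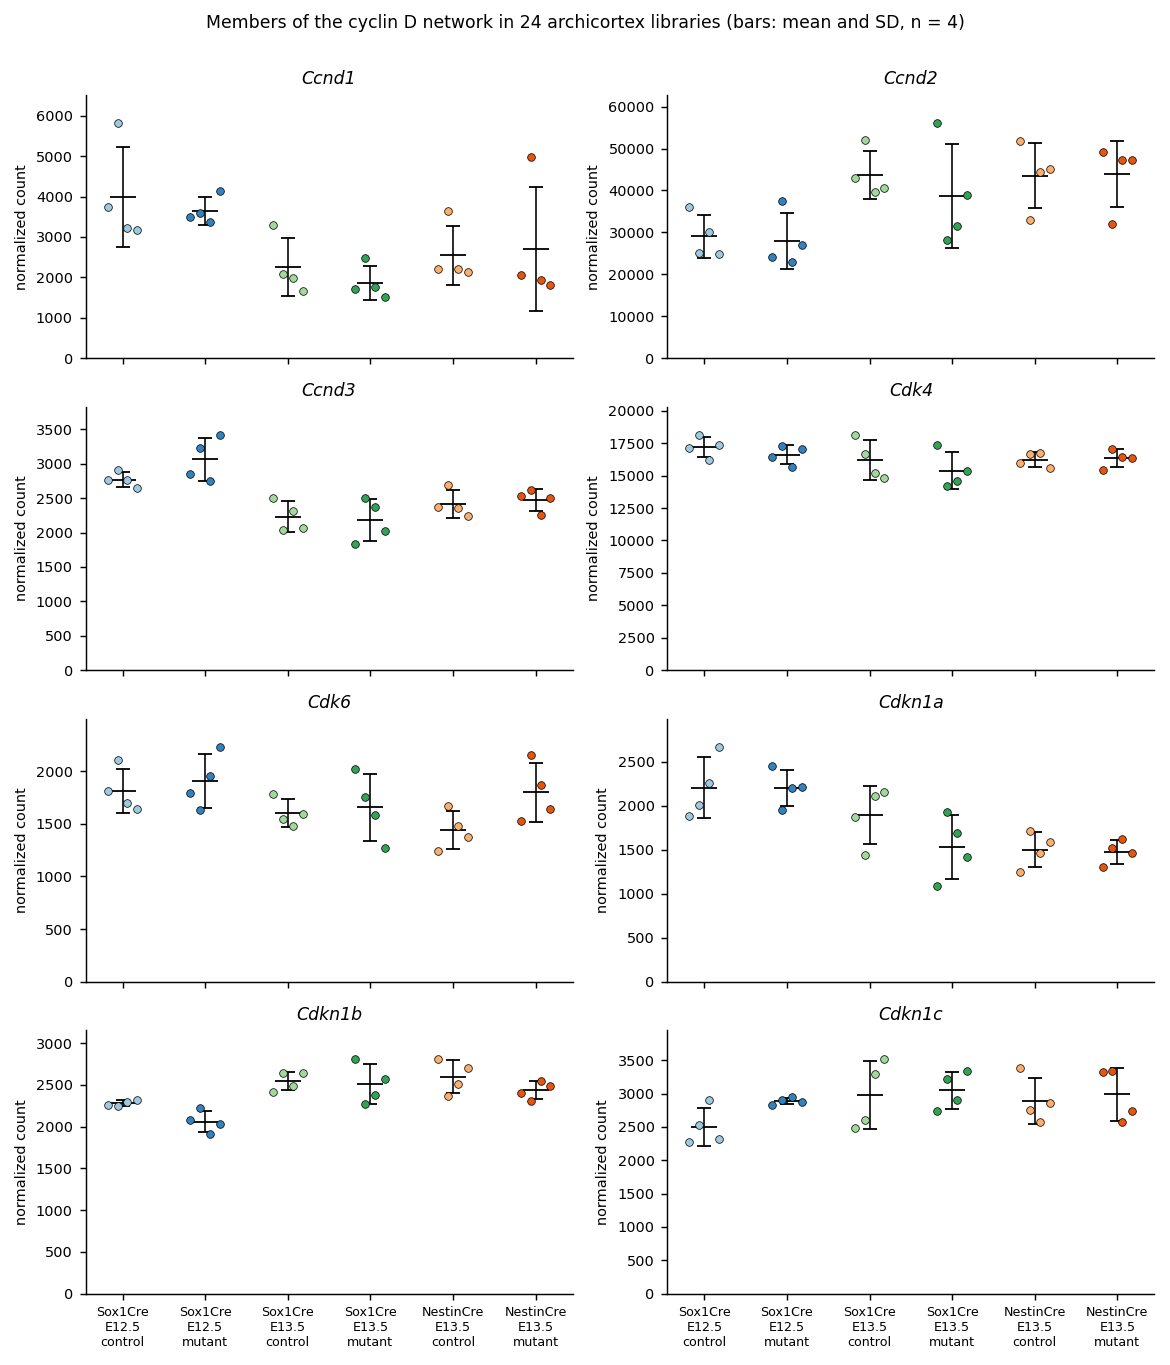
Normalized count of each of the 8 members (y axis from 0) in every library, with the 6 groups of 4 libraries along the x axis and bars for the mean and SD. Mutant and control points overlap in all panels apart from Cdkn1b at E12.5, and in the Sox1Cre line the means of Ccnd1 are lower and those of Ccnd2 higher at E13.5 than at E12.5.

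Ccnd1, the cyclin most responsive to growth signals, stood at 3495, 3595, 3365 and 4148 (A9 to A12) in E12.5 mutants and 3752, 5813, 3232 and 3173 (A13 to A16) in their controls. At E13.5 it was 1705, 2476, 1768 and 1516 (A1 to A4) in Sox1Cre mutants and 3289, 2087, 1989.8 and 1669 (A5 to A8) in controls. In the NestinCre line it was 2049.8, 4989, 1947 and 1805 (A17 to A20) in mutants and 2206, 3639, 2199 and 2133 (A21 to A24) in controls. The groups overlapped in all 3 comparisons, and single high libraries, A14, A5, A18 and A22, set the spread in 4 of the 6 groups. The log2 difference between mutants and controls was -0.088 (95% interval -0.66 to 0.49) at E12.5, -0.25 (-0.83 to 0.32) in E13.5 Sox1Cre mutants and -0.017 (-0.59 to 0.56) in NestinCre mutants. Without A5 the E13.5 Sox1Cre difference was -0.056.

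Ccnd2, the main D cyclin of cortical progenitors, stood at 24242, 37547, 23017 and 27015 (A9 to A12) in E12.5 mutants and 35985, 25174, 30127 and 24913 (A13 to A16) in controls. At E13.5 it was 56038, 28130.05, 31631 and 38945 (A1 to A4) in Sox1Cre mutants and 42906, 52094, 39568 and 40485 (A5 to A8) in controls. In the NestinCre line it was 49219, 32122, 47161 and 47347 (A17 to A20) in mutants and 51722, 32878, 44386 and 45200.3 (A21 to A24) in controls. A1 was the highest library of all 24 and the other 3 mutants of its group were below every one of their controls. The log2 differences were -0.066 (95% interval -0.48 to 0.35), -0.22 (-0.64 to 0.19) and 0.012 (-0.40 to 0.43) in the same order. Leaving out single libraries moved the E13.5 Sox1Cre difference from -0.42 without A1 (adjusted p = 0.223, limma) to -0.085 without A2, and none passed. Ccnd3, the third D cyclin, gave tighter intervals, with log2 differences of 0.14 (-0.051 to 0.33), -0.036 (-0.23 to 0.15) and 0.036 (-0.15 to 0.23). With single libraries left out that at E12.5 ran from 0.085 (without A12) to 0.19 (without A11) and that in NestinCre mutants from 0.00083 (without A24) to 0.091 (without A22).

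Cdk4 lay between 14219 (A2) and 18144 (A5) over all 24 libraries. Its log2 difference between mutants and controls was -0.049 (-0.18 to 0.084) at E12.5, -0.074 (-0.21 to 0.060) in E13.5 Sox1Cre mutants and 0.0081 (-0.13 to 0.14) in NestinCre mutants. These were the narrowest intervals of any cyclin or kinase, but leaving out single libraries moved the differences from -0.078 (without A15) to -0.022 (without A11) at E12.5 and from -0.13 (without A1) to -0.018 (without A5) in E13.5 Sox1Cre mutants. Cdk6, the second kinase, was 1522, 2152, 1872 and 1642 (A17 to A20) in NestinCre mutants and 1241, 1666, 1479 and 1378 (A21 to A24) in NestinCre controls. The mutants were higher on average, 1797 ± 278 against 1441 ± 179 (SD, n = 4), but A17 and A20 lay below the highest control. The log2 difference of 0.31 ± 0.13 had an unadjusted p of 0.027 and an adjusted p of 0.68 in limma, and the exact permutation p was 0.0857. In the Sox1Cre line the log2 difference of Cdk6 was 0.067 (-0.21 to 0.34) at E12.5 and 0.033 (-0.24 to 0.31) at E13.5.

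Cdkn1a, which encodes p21, stood at 1085, 1932, 1692 and 1413 (A1 to A4) in E13.5 Sox1Cre mutants and 1874, 1439.6, 2109 and 2155 (A5 to A8) in controls. A1, the library with little choroid plexus, was the lowest of all 24, and A6 was lower than 2 of the mutants. A1 also held the lowest cortical hem sum of all 24 libraries (13063 normalized counts). Its meningeal (18231), endothelial and pericyte (5347) and microglial (1559) sums were the lowest as well. The log2 difference was -0.32 ± 0.15 (unadjusted p = 0.0481, adjusted p = 0.418 in limma), and leaving out single libraries moved it from -0.45 without A6 to -0.17 without A1. In NestinCre mutants it was -0.017 (-0.34 to 0.30), with values of 1299.9, 1518, 1624 and 1466 (A17 to A20) against 1246, 1711, 1458 and 1584 (A21 to A24). At E12.5 it was 0.0077 (-0.31 to 0.33), with values of 2445, 1955, 2195 and 2211 (A9 to A12) against 1881, 2008, 2252 and 2668 (A13 to A16). The change between mutants and controls did not pass as different between the Cre lines (log2 -0.31, adjusted p = 0.802) or between the ages (-0.33, adjusted p = 0.779). With single libraries left out these ran from -0.43 (without A6) to -0.15 (without A1) and from -0.46 (without A6) to -0.18 (without A1), and none passed.

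Cdkn1b, which encodes p27, was the only member with groups that did not overlap in a comparison of mutants with controls. At E12.5 it was 2078, 2219, 1915 and 2029 (A9 to A12) in mutants and 2257, 2244, 2291 and 2320.5 (A13 to A16) in controls, and every mutant lay below every control. Groups of 4 did not overlap in 10.3% of all genes in this comparison, in 5.06% at E13.5 in the Sox1Cre line and in 4.98% in the NestinCre line, so 1 of 8 at E12.5 is close to the share over all genes. The mean was 2278 ± 34.3 in controls and 2060.3 ± 126 in mutants (SD, n = 4), which did not pass the test, with a log2 difference of -0.15 ± 0.062 and an adjusted p of 0.302 in limma. The exact permutation p was 0.0286, the smallest that 4 against 4 allows. At E13.5 the log2 difference was -0.026 (-0.16 to 0.10) in the Sox1Cre line and -0.088 (-0.22 to 0.041) in the NestinCre line, the latter from -0.13 without A22 to -0.049 without A21. The mean of the 3 differences was -0.087 (-0.16 to -0.013, adjusted p = 0.227).

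Cdkn1c, which encodes p57, leaned the other way at E12.5. It was 2833, 2905, 2946 and 2878 (A9 to A12) in mutants and 2270.5, 2528, 2897 and 2312 (A13 to A16) in controls, where A15 lay inside the mutant range. The log2 difference was 0.21 ± 0.11 (adjusted p = 0.414 in limma). At E13.5 it was 0.048 (-0.19 to 0.28) in Sox1Cre mutants and 0.048 (-0.19 to 0.28) in NestinCre mutants. All 16 E13.5 libraries together spanned 2481 to 3524, both ends in Sox1Cre controls.

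Averaged over the 3 comparisons, limma called 0 of 8 members, against 2.52% of all genes, with 1 of 8 (Cdkn1b) at an unadjusted p under 0.05, beside 15.5% of all genes. 0 of 8 members were called for a difference in response between the Cre lines at E13.5 (0.0425% of all genes) or between the ages in the Sox1Cre line (0% of all genes), and 0 of 8 had an unadjusted p under 0.05 there, beside 8.27% and 7.4% of all genes. edgeR and DESeq2 called 0 of 8 members in each of these. The averaged log2 differences were -0.12 for Ccnd1, -0.091 for Ccnd2, 0.047 for Ccnd3, -0.038 for Cdk4, 0.14 for Cdk6, -0.11 for Cdkn1a and 0.10 for Cdkn1c. Of these the widest interval belonged to Ccnd1 (-0.45 to 0.21) and the narrowest to Cdk4 (-0.12 to 0.039). Leaving out single libraries moved the averages by more than 1.5 times for 5 members, from -0.23 (without A18) to -0.054 (without A5) for Ccnd1, from -0.16 (without A1) to -0.043 (without A18) for Ccnd2 and from 0.024 (without A2) to 0.074 (without A1) for Ccnd3. The average ran from -0.059 (without A1) to -0.020 (without A5) for Cdk4 and from -0.15 (without A6) to -0.059 (without A1) for Cdkn1a, and 0 of 8 members passed with any 1 library left out.

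**Figure D3:**
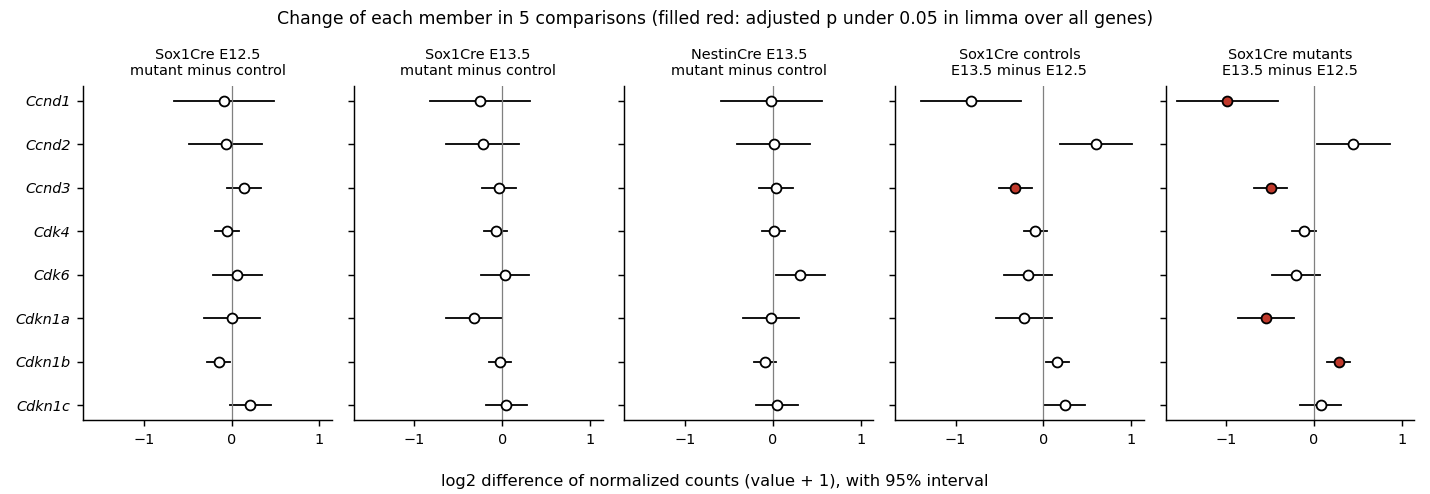
log2 difference of each member (points) with its 95% interval (lines) in 3 comparisons of mutants with controls and 2 of E13.5 with E12.5; filled red points passed an adjusted p of 0.05 in limma over all genes. No point is filled in the first 3 panels, 1 of 8 is filled in Sox1Cre controls across age and 4 of 8 in Sox1Cre mutants.

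Members did differ between the ages. From E12.5 to E13.5, in Sox1Cre mutants Ccnd1, Ccnd3 and Cdkn1a fell and Cdkn1b rose, and in Sox1Cre controls Ccnd3 fell, a call that held in only 3 of 8 omissions of a single library. limma called 4 of 8 members in the mutants, where 25.9% of all genes were called, and 1 of 8 in the controls, where 11.5% were called. The 3 that fell in mutants stand beside 12.1% of all genes called lower and the 1 that rose beside 13.8% called higher, and the 1 that fell in controls stands beside 5.17% called lower (0 rose there, beside 6.33% called higher). An unadjusted p under 0.05 was reached by 5 of 8 members in each genotype, beside 37.9% of all genes in mutants and 26.7% in controls. The share of members called in mutants is above that of all genes and the share in controls is near it, and with 8 genes neither sets the members apart from other genes.

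Ccnd1 in the mutants went from 3651 ± 344 at E12.5 to 1866 ± 420.2 at E13.5 (SD, n = 4) with no overlap between the ages, a log2 change of -0.99 ± 0.28 (adjusted p = 0.0119, limma). In controls it went from 3992 ± 1241 to 2259 ± 709.5, with A5 at E13.5 inside the E12.5 range. The log2 difference there was -0.82 ± 0.28 (adjusted p = 0.0567), which did not pass. Leaving out single control libraries moved it from -1.02 without A5, the only 1 of 8 omissions that passed (adjusted p = 0.0184, limma), to -0.63 without A14 (adjusted p = 0.185), and with Xist as a covariate it was -0.64 (adjusted p = 0.387). Ccnd2 differed in the opposite direction. Its mean was 29049.7 ± 5209 in E12.5 controls and 43763 ± 5729.6 in E13.5 controls, whose ranges did not overlap, a log2 difference of 0.60 ± 0.20 (adjusted p = 0.0555). In mutants the log2 difference was 0.44 ± 0.20 (adjusted p = 0.106), where A10 at E12.5 lay above A2 and A3 at E13.5. In controls Ccnd2 passed in 3 of 9 other settings (adjusted p = 0.025 in DESeq2, 0.0372 under quantile normalization and 0.023 in a limma fit to only the libraries compared) and in 1 of 8 omissions of a single library. With Xist as a covariate its difference was 0.41 (adjusted p = 0.442), and without A6, the omission with the highest adjusted p, it was 0.51 (adjusted p = 0.161). In mutants the difference of Ccnd2 was 0.25 without A1 and 0.60 without A10, and 2 of 8 omissions passed, as did 1 of 9 other settings, quantile normalization (0.52, adjusted p = 0.0382).

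Ccnd3 was 2856, 3229.7, 2748 and 3419.7 (A9 to A12) in E12.5 mutants and 1829.9, 2500.5, 2378 and 2022 (A1 to A4) in E13.5 mutants. It was 2762, 2908, 2769 and 2647 (A13 to A16) in E12.5 controls and 2509.6, 2032, 2307 and 2068 (A5 to A8) in E13.5 controls. Neither pair of groups overlapped, and the log2 change was -0.49 ± 0.092 in mutants (adjusted p = 0.000829) and -0.32 ± 0.092 in controls (adjusted p = 0.0285, limma). The control call was lost without A6, A8, A13, A14 or A15, with an adjusted p of up to 0.104 and a log2 difference of -0.28 without A6. With Xist as a covariate the control difference was -0.23 with an adjusted p of 0.341, in a fit that called 0 of the 1892 genes called without it. Over the 6 groups the Ccnd3 means of both E12.5 groups lay above those of all 4 E13.5 groups, and the E12.5 controls did not overlap the next group, the NestinCre mutants at 2476 ± 158. A22 in the NestinCre controls, at 2698, lay above the lowest E12.5 library, A16 at 2647. Among the E13.5 groups, from 2183 in Sox1Cre mutants upward, neighbours overlapped throughout.

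Neither kinase passed with age. For Cdk4 the log2 difference was -0.11 ± 0.064 in mutants and -0.091 ± 0.064 in controls, and for Cdk6 it was -0.21 ± 0.13 and -0.18 ± 0.13, with adjusted p from 0.199 to 0.419 in limma. Leaving out single libraries moved the Cdk4 difference in mutants from -0.18 without A1, the only 1 of 8 omissions that passed (adjusted p = 0.0396), to -0.078 without A2 (adjusted p = 0.419), and that in controls from -0.15 without A5 to -0.048 without A8, where none passed. That of Cdk6 ran from -0.31 without A1 to -0.087 without A4 in mutants and from -0.23 without A5 to -0.10 without A14 in controls, and none of these passed.

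Among the inhibitors Cdkn1a fell in mutants from 2201 ± 200.2 to 1531 ± 365, with no overlap, a log2 change of -0.55 ± 0.15 (adjusted p = 0.0118, limma, and 0.0576 in a fit to only the libraries compared). In controls the difference was -0.22 ± 0.15 (adjusted p = 0.378). Cdkn1b rose in mutants from 2060.3 ± 126 to 2506 ± 239, with no overlap, a log2 change of 0.28 ± 0.062 (adjusted p = 0.00279), and in controls all 4 E13.5 libraries were above all 4 at E12.5, with a log2 difference of 0.16 ± 0.062 (adjusted p = 0.0999, and 0.0473 in a limma fit to only the libraries compared, the only 1 of 9 other settings in which it passed). Cdkn1c differed by 0.074 ± 0.11 in mutants and 0.24 ± 0.11 in controls (adjusted p = 0.671 and 0.175). Leaving out single libraries, these ran from 0.029 (without A4) to 0.12 (without A1) and from 0.15 (without A8) to 0.32 (without A5), and the control difference of Cdkn1a from -0.29 (without A13) to -0.10 (without A6), and none passed. The ages did not overlap for 4 of 8 members in mutants (Ccnd1, Ccnd3, Cdkn1a and Cdkn1b) and 3 of 8 in controls (Ccnd2, Ccnd3 and Cdkn1b), beside 23.1% and 18% of all genes. That a member passed in mutants and not in controls does not show that the ages differ more in mutants: the difference of the differences had adjusted p from 0.779 to 0.984.

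Markers of several cell types in the dissection differed between the ages as well. Of 8 neuronal markers, 7 rose in controls and 7 in mutants (Dcx, Stmn2, Neurod2, Neurod6, Tbr1, Map2 and Elavl3 in both), and their summed level was 27996 to 30189 at E12.5 and 33315 to 51422 at E13.5 in controls and 26653 to 29714 and 32963 to 53095 in mutants, Map2 being the most abundant. Of 7 cortical hem markers, 4 fell in controls and 5 in mutants, with sums of 26471 to 41725 and 15082 to 22949.8 in controls and 34142 to 50468 and 13063 to 27243 in mutants, Wnt8b being the most abundant. Of 9 erythroid genes, 6 fell and 0 rose in controls and 6 fell and 1 (the adult globin Hbb-bs) rose in mutants, with sums of 176221 to 215190.5 and 72579 to 141737 in controls and 171415 to 198598 and 62392 to 110422 in mutants, the embryonic globin Hbb-y being the most abundant. None of the markers of these 3 lists was at 0 in any library. Genes called most abundant or leading, here and below, were ranked by mean normalized count without correction for length. Of the 7 dorsal progenitor markers given here, of 8 listed, 1 fell in controls (Emx2), and in mutants 4 rose (Emx1, Lhx2, Pax6 and Nes) and 1 fell (Emx2).

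Of the other 7 marker lists, 5 also held calls with age. Of 5 intermediate progenitor markers, Eomes and Neurod4 rose in controls and Eomes in mutants. Of 7 Cajal-Retzius markers, Reln and Calb2 rose in both, and Trp73, Lhx5 and Ebf3 fell in mutants, with a log2 change of -0.74 for Trp73 (adjusted p = 0.00191, limma) beside -0.46 in controls (adjusted p = 0.0573). Of 9 meningeal markers, Dcn, Slc6a13 and Cyp1b1 rose in both, and Lum, Foxc1 and Foxc2 fell in mutants. Of 7 choroid plexus markers, 0 were called in controls, where the median log2 difference was 1.09, and Kl and Aqp1 rose in mutants, where it was 0.70. Of 8 endothelial and pericyte markers, Rgs5 rose in both. limma called 0 of 8 microglial and 0 of 4 tested ventral telencephalic markers in either genotype. The part of all these markers in the age differences of the members was not tested.

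The balance of Ccnd2 to Ccnd1 within a library does not depend on the size factor. The ratio of their normalized counts was 9.59, 4.33, 9.32 and 7.85 (A13 to A16) in E12.5 controls and 13.05, 24.96, 19.9 and 24.3 (A5 to A8) in E13.5 controls. In mutants it was 6.94, 10.4, 6.84 and 6.51 (A9 to A12) at E12.5 and 32.9, 11.4, 17.9 and 25.7 (A1 to A4) at E13.5. In both genotypes every E13.5 library had the higher ratio, by 1.42 on the log2 scale in controls and 1.43 in mutants. The exact permutation p was 0.0286 in each, the smallest that 4 against 4 allows, and 0.143 after adjustment over the 15 ratio tests. Of all single genes, 18% did not overlap between the ages in controls and 23.1% in mutants. The share over pairs of genes was not computed. Between genotypes the groups overlapped, with log2 differences of 0.022 at E12.5, 0.032 in E13.5 Sox1Cre mutants and 0.029 in NestinCre mutants (exact permutation p = 1, 0.943 and 0.943). In the NestinCre line A18 and A22 stood at 6.44 and 9.04, inside the E12.5 range, while the other 6 libraries were at 20.2 or more.

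The ratio of Cdkn1c to Cdkn1b was 1.36, 1.31, 1.54 and 1.42 (A9 to A12) in E12.5 mutants and 1.01, 1.13, 1.26 and 0.996 (A13 to A16) in their controls, again without overlap. The log2 difference was 0.36 (exact permutation p = 0.0286, adjusted 0.143 over 15 tests). Cdkn1b alone did not overlap in this comparison either, beside 10.3% of all genes. The share of other gene pairs whose ratios did not overlap was not computed. At E13.5 the groups overlapped, with log2 differences of 0.074 in the Sox1Cre line and 0.14 in the NestinCre line. The ratio of Cdk6 to Cdk4 was 0.11 ± 0.0128 in NestinCre mutants and 0.0886 ± 0.00907 in controls (SD, n = 4, exact permutation p = 0.0571), and the groups overlapped.

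**Figure D4:**
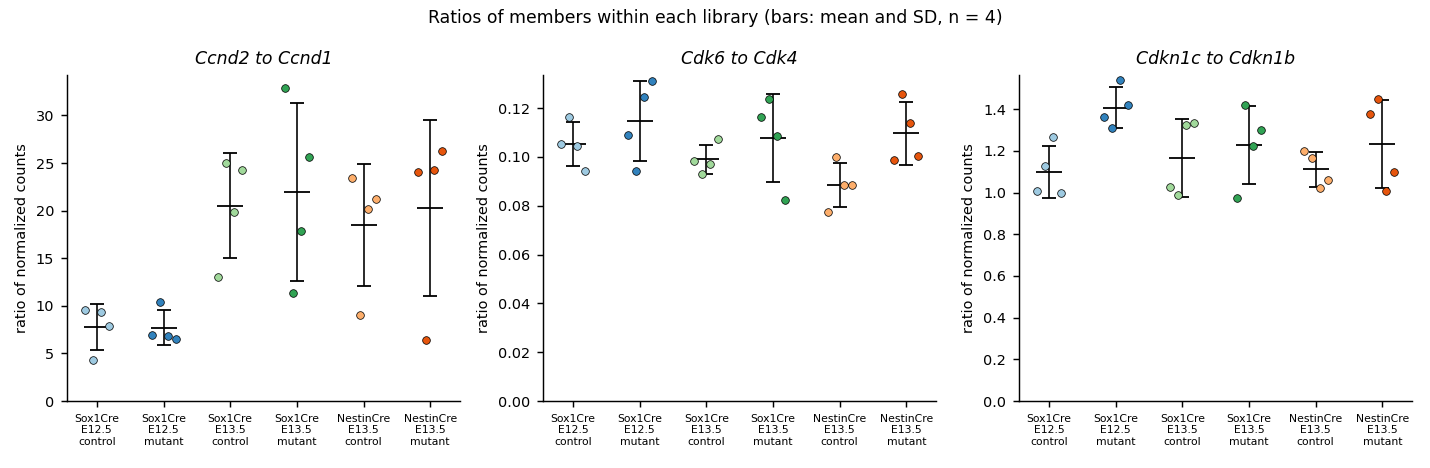
Ratios of normalized counts within each library for Ccnd2 to Ccnd1, Cdk6 to Cdk4 and Cdkn1c to Cdkn1b (y axes from 0), with bars for the mean and SD of 4 libraries. The first ratio is at most 10.4 in the 8 E12.5 libraries and at least 11.4 in the 8 Sox1Cre libraries of E13.5, and the third is higher in E12.5 mutants than in their controls.

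Some members rose and fell together from library to library. Correlations of log2 values were taken over all 24 libraries and over deviations from group means, the latter with libraries permuted within groups and with adjustment over the 28 pairs. Ccnd2 and Cdkn1b went together (r = 0.85 over the 24 libraries and 0.81 within groups, permutation p = 0.0001, adjusted 0.0014, with a within-group rho of 0.78, permutation p = 5e-05, adjusted 0.0014). Ccnd2 and Cdkn1a went in opposite directions (r = -0.80 over the 24 libraries and -0.79 within groups, permutation p = 0.0001, adjusted 0.0014, with a within-group rho of -0.73, permutation p = 0.00034, adjusted 0.00476). Without A1 and A18, the libraries farthest from their group in Ccnd2, the within-group r was 0.70 for the first pair and -0.76 for the second.

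Ccnd1 tracked 3 further members. It went with Ccnd3 (r = 0.80 over the 24 libraries and 0.61 within groups, permutation p = 0.00026, adjusted 0.00243, with a within-group rho of 0.62, permutation p = 0.00057, adjusted 0.00532) and with Cdk6 (r = 0.63 over the 24 libraries and 0.66 within groups, permutation p = 0.00092, adjusted 0.00644, with a within-group rho of 0.59, permutation p = 0.00357, adjusted 0.025). It went against Cdkn1b (r = -0.69 over the 24 libraries and -0.55 within groups, permutation p = 0.00149, adjusted 0.00834, with a within-group rho of -0.54, permutation p = 0.00472, adjusted 0.0264). Without A5 and A18 the within-group r of these pairs was 0.62, 0.57 and -0.51. These 5 of the 28 pairs had an adjusted p under 0.05 within groups for both r and rho. Ccnd1 and Ccnd2, opposite over all libraries (r = -0.66), did not pass within groups (r = -0.50, permutation p = 0.0204, adjusted 0.0715, rho = -0.34). All libraries share 1 scaling, and the makeup of each dissection enters every pair.

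Members also went with or against the mean log2 level of marker lists within groups, and most of these pairs had an r of the same sign over all 24 libraries. Each of the 8 members was compared with 12 lists, 96 correlations in all, with adjustment over the 96, and 19 of them had an adjusted p under 0.05 within groups for both r and rho. Cdkn1a went with the cortical hem list (r = 0.92 over the 24 libraries and 0.92 within groups, permutation p = 1e-05, adjusted 0.00096, with a within-group rho of 0.92, permutation p = 1e-05, adjusted 0.00096), and r was 0.86 without A1 and A6. Ccnd2 went against it (r = -0.87 over the 24 libraries and -0.77 within groups, permutation p = 0.00037, adjusted 0.0071, with a within-group rho of -0.73, permutation p = 0.00072, adjusted 0.0115), and r was -0.69 without A1 and A18. Cdkn1b went with the neuronal list (r = 0.85 over the 24 libraries and 0.76 within groups, permutation p = 0.00135, adjusted 0.0144, with a within-group rho of 0.77, permutation p = 0.00141, adjusted 0.0169, r = 0.70 without A1 and A2) and Ccnd3 against it (r = -0.91 over the 24 libraries and -0.85 within groups, permutation p = 0.00014, adjusted 0.00336, with a within-group rho of -0.82, permutation p = 0.00024, adjusted 0.00576, r = -0.82 without A1 and A2).

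Cdk4 went with the 12 cycling-cell genes (r = 0.70 over the 24 libraries and 0.82 within groups, permutation p = 0.00058, adjusted 0.00795, with a within-group rho of 0.75, permutation p = 0.00237, adjusted 0.0253, r = 0.66 without A1 and A5). It went against the choroid plexus list (r = -0.83 over the 24 libraries and -0.82 within groups, permutation p = 0.00013, adjusted 0.00336, with a within-group rho of -0.80, permutation p = 0.00022, adjusted 0.00576, r = -0.71 without A1 and A5). Cdk6 also went against the choroid plexus list (r = -0.69 over the 24 libraries and -0.70 within groups, permutation p = 0.0017, adjusted 0.0145, with a within-group rho of -0.64, permutation p = 0.00283, adjusted 0.027, r = -0.76 without A1 and A4). Cdkn1c, a gene of connective and vascular tissue as well as neurons, went with the microglial list (r = 0.53 over the 24 libraries and 0.65 within groups, permutation p = 0.00047, adjusted 0.00752, with a within-group rho of 0.71, permutation p = 0.00052, adjusted 0.00998, r = 0.70 without A8 and A21) and the meningeal list (r = 0.39 over the 24 libraries and 0.56 within groups, permutation p = 0.00283, adjusted 0.0209, with a within-group rho of 0.55, permutation p = 0.00876, adjusted 0.0443, r = 0.65 without A8 and A21). Ccnd1 went with the erythroid list (r = 0.82 over the 24 libraries and 0.58 within groups, permutation p = 0.00514, adjusted 0.0247, with a within-group rho of 0.58, permutation p = 0.0061, adjusted 0.0371, r = 0.69 without A5 and A18), as did Ccnd3 (r = 0.93 over the 24 libraries and 0.86 within groups, permutation p = 3e-05, adjusted 0.00144, with a within-group rho of 0.82, permutation p = 4e-05, adjusted 0.00192, r = 0.84 without A1 and A2). The other 8 that passed had permutation p adjusted over the 96 from 0.00912 to 0.0359 for r and from 0.0167 to 0.0468 for rho. Ccnd2 went with the neuronal list (within-group r = 0.63, 0.57 without A1 and A18) and Cdkn1b against the erythroid list (r = -0.77, -0.73 without A1 and A2). Ccnd3 (r = -0.72, -0.59 without A1 and A2) and Cdkn1a (r = -0.66, -0.46 without A1 and A6) went against the dorsal progenitor list. Cdk4 (r = -0.69, -0.68 without A1 and A5) and Cdkn1b (r = -0.61, -0.35 without A1 and A2) went against the meningeal list. Over the 24 libraries these were -0.46 and 0.0038, so that of Cdkn1b stood within groups only. With the endothelial and pericyte list r was -0.60 for Cdk4 (-0.42 without A1 and A5) and 0.36 for Cdkn1c (0.42 without A8 and A21). Over the 24 libraries these were -0.51 and 0.36. In the same way r was 0.80 for Ccnd2 with the neuronal list and -0.84 for Cdkn1b with the erythroid list. With the dorsal progenitor list it was -0.84 for Ccnd3 and -0.81 for Cdkn1a. No gene of these lists is one of the 8 members. Whether the members' levels per cell moved, or only the mix of cells in a dissection, was not tested.

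**Figure D5:**
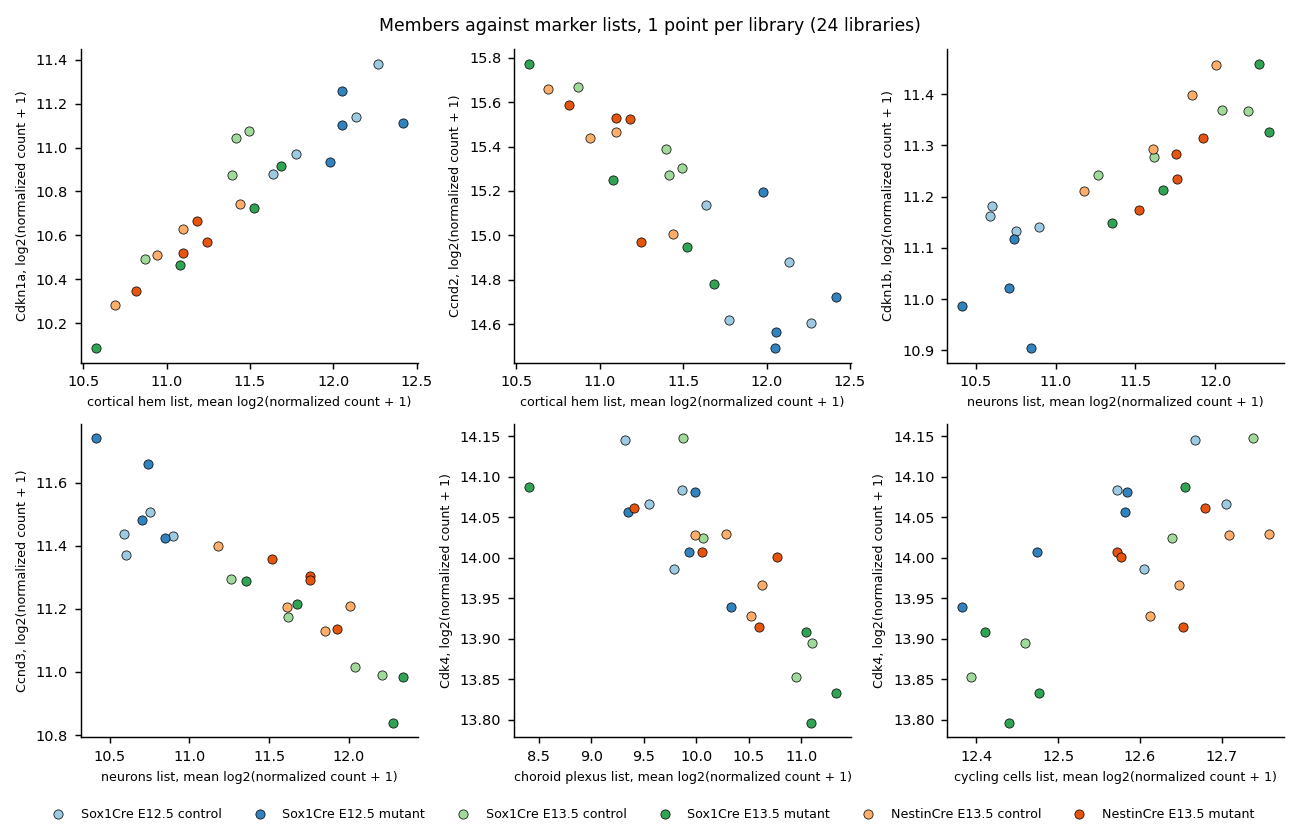
log2 levels of 5 members (y axes) against the mean log2 level of a marker list (x axes), 1 point per library and coloured by group, 24 libraries per panel. Cdkn1a rises and Ccnd2 falls along the cortical hem list, Cdkn1b rises and Ccnd3 falls along the neuronal list, and Cdk4 falls along the choroid plexus list and rises along the cycling-cell list.

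For each member the 3 genes most alike over the 24 libraries were taken among genes with a mean of at least 100, by Pearson r of log2 values, which is a description with no test. For Cdkn1a they were Tmem132c (r = 0.95, within groups 0.90), Trp73 (r = 0.94, within groups 0.95) and Flrt2 (r = 0.94, within groups 0.88). Trp73 encodes p73, a p53 family factor of the hem and of Cajal-Retzius cells, and is in the Cajal-Retzius list. The mean of that whole list did not pass with Cdkn1a (r = 0.16 over the 24 libraries and 0.32 within groups, permutation p = 0.234, adjusted 0.357, with a within-group rho of 0.33, permutation p = 0.163, adjusted 0.307). For Ccnd2 they were Pdzd4 (r = 0.94, within groups 0.91), A830082K12Rik (r = 0.93, within groups 0.89) and Arhgap33 (r = 0.91, within groups 0.90). For Ccnd1 they were Hmga2 (r = 0.93, within groups 0.88), a chromatin protein of fetal progenitors, Zyx (r = 0.91, within groups 0.83) and Jarid2 (r = 0.91, within groups 0.79). For Ccnd3 they were Scube3 (r = 0.95, within groups 0.88), Stx2 (r = 0.94, within groups 0.84) and Blvrb (r = 0.93, within groups 0.84).

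Cdk4 was most like Rack1 (r = 0.94, within groups 0.94), a ribosomal scaffold protein, Ddx39b (r = 0.94, within groups 0.94), an RNA helicase of mRNA export, and Nmral1 (r = 0.93, within groups 0.91). Cdk6 was most like Nectin3 (r = 0.89, within groups 0.88), an adhesion molecule, Rab8b (r = 0.84, within groups 0.78) and Tpgs2 (r = 0.84, within groups 0.86). Cdkn1b was most like Necab3 (r = 0.93, within groups 0.83), Fez1 (r = 0.93, within groups 0.76) and Bzw2 (r = 0.93, within groups 0.77). Cdkn1c had the weakest neighbours, Sec24d (r = 0.77, within groups 0.71), Kctd12 (r = 0.77, within groups 0.72) and Ptn (r = 0.74, within groups 0.67), a secreted growth factor. When the ranking used deviations from group means, all 3 genes of Ccnd2 and 2 of 3 for Cdkn1a and Cdk4 stayed, 1 of 3 stayed for Ccnd1 and Cdk6, and 0 of 3 for Ccnd3, Cdkn1b and Cdkn1c, 9 of 24 in all. When it used Spearman rho over the 24 libraries, all 3 genes of Cdkn1b stayed, 2 of 3 for Ccnd2, Cdkn1a and Cdkn1c, 1 of 3 for Ccnd1, Cdk4 and Cdk6, and 0 of 3 for Ccnd3, 12 of 24 in all.

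The rest of the pathway was read from 11 lists of 99 genes, of which 95 were tested. In the comparisons of mutants with controls limma called 0 of 95 in Sox1Cre mutants at E12.5, 0 at E13.5 and 0 in NestinCre mutants, with 11, 7 and 6 at an unadjusted p under 0.05. Those are 11.6%, 7.37% and 6.32% of 95, none above the share of all genes, which was 2217 of 16454 at E12.5, 11.7% and 6.47%. edgeR called 0 in each, and DESeq2 called 4, 0 and 1, namely Bbc3, Ccnh, Mycn and Cdk7 at E12.5 and Tfdp2 in NestinCre mutants. For the mean of the 3 differences limma called 3 of 95 (3.16%, beside 2.52% of all genes). Tfdp2, an E2F partner, was higher by 0.14 on the log2 scale (adjusted p = 0.0151), Bbc3, the pro-apoptotic p53 target PUMA, was higher by 0.33 (adjusted p = 0.0325) and Ccnh, the cyclin of the CDK-activating kinase, was lower, with a log2 change of -0.15 (adjusted p = 0.0282, limma). Across age limma called 7 higher and 6 lower in controls (13.7% of 95, beside 11.5% of all genes) and 16 higher and 11 lower in mutants (28.4%, beside 25.9%).

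Among the other inhibitors of CDK4 and CDK6, the INK4 family, 2 of 4 were tested. Cdkn2c (p18) rose with age by 0.49 on the log2 scale in controls (adjusted p = 0.00946) and by 0.35 in mutants (adjusted p = 0.0247, limma), and its differences between mutants and controls were -0.041, -0.18 and 0.022 at E12.5, in E13.5 Sox1Cre mutants and in NestinCre mutants, the order kept below. Those of Cdkn2d (p19) were 0.15, 0.035 and 0.053. Cdkn2b and Cdkn2a averaged 1.997 and 0.481 normalized counts and were at 0 in 7 and 15 of the 24 libraries. Both were thus close to 0 in this tissue, while the lowest value of a CIP/KIP gene was 1085.

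Downstream of the D cyclins, the list of cyclin E, cyclin A and CDK2 genes held 6 tested genes. With age 0 of 6 changed in controls and 1 fell in mutants, the CDK subunit Cks1b (-0.20, adjusted p = 0.0372). The differences between mutants and controls were -0.14, 0.032 and 0.010 for Ccna2 and -0.020, -0.075 and 0.054 for Cks1b, the 2 most abundant. Of 13 RB and E2F family genes 2 fell in controls with age, the repressors E2f7 (-0.66, adjusted p = 0.00618) and E2f5 (-0.31, adjusted p = 0.025). In mutants E2f7 (-0.87), E2f6 (-0.35) and E2f5 (-0.29) fell and the pocket protein Rbl2 (0.23), with E2f3 a further call, rose (adjusted p from 0.000339 to 0.0346, limma). The differences between mutants and controls were -0.11, -0.13 and -0.027 for Tfdp1 and 0.21, -0.0049 and 0.073 for E2f7.

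Of 12 cycling-cell genes (replication factors and mitotic regulators) 0 changed with age in controls and 1 rose in mutants, the proliferation marker Mki67 (0.43, adjusted p = 0.035). Their median difference between mutants and controls was -0.14 at E12.5, -0.084 in E13.5 Sox1Cre mutants and -0.032 in NestinCre mutants, with 0 of 12 called in each. The differences were -0.11, -0.14 and -0.046 for Top2a and -0.23, 0.28 and -0.44 for Mki67. The summed level was 72372 to 84492 in E12.5 mutants against 83258 to 91875 in controls, 77069 to 88031 against 75405 to 92788 in the Sox1Cre line at E13.5 and 83125 to 90936 against 90006 to 97851 in the NestinCre line.

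Proteins that destroy D cyclins or CIP/KIP inhibitors formed a list of 12. With age 0 of 12 changed in controls, and in mutants Gsk3b (0.27), a kinase that marks cyclin D1 for export and decay, Skp1a (0.23) and the SCF receptor Fbxw7 (0.22) rose and Ddb1 (-0.24) fell (adjusted p from 0.00156 to 0.0212, limma). Their differences between mutants and controls were -0.0045, -0.12 and 0.017 for Ddb1 and -0.10, -0.020 and 0.17 for Gsk3b. Of 5 CDK activation and assembly genes Cdk7 fell with age in mutants (-0.20, adjusted p = 0.0121) and 0 of 5 changed in controls. The differences were 0.0034, -0.011 and -0.074 for the chaperone Cdc37 and 0.20, -0.062 and 0.033 for Cdk7.

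Upstream, of 9 mitogen response genes Jun rose with age in controls (0.67, adjusted p = 0.0142). In mutants Jun (0.80) and Mycn (0.62), the MYC protein of neural progenitors, rose and the FGF feedback inhibitor Spry2 (-0.82) fell (adjusted p from 0.00191 to 0.0298, limma). Mycn differed between mutants and controls by -0.50, 0.050 and -0.10 and Jun by -0.33, -0.21 and -0.21. Cdk4, with its 4 CACGTG runs shown above, differed by -0.11 ± 0.064 on the log2 scale over the same age step in mutants. That difference did not pass (adjusted p = 0.199, limma). Whether MYC proteins acted on Cdk4 in this tissue was not tested.

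Of 12 p53 targets Pmaip1 (NOXA) fell with age in controls (-1.86, adjusted p = 0.0284) and in mutants (-1.51, adjusted p = 0.0416), and the nuclease gene Aen rose in mutants (0.30, adjusted p = 0.00959, limma). Their median difference between mutants and controls was 0.0079, 0.10 and 0.065. The difference of Cdkn1a, the member with the p53 family site, was 0.0077, -0.32 and -0.017, and it was not called. Zmat3 differed by -0.019, 0.071 and 0.18 and Btg2 by -0.10, -0.13 and -0.035. With age the median of the list was 0.072 in controls and 0.11 in mutants, and the difference of Cdkn1a was -0.22 and -0.55. The activity of p53 family proteins was not measured, and their part in the level of Cdkn1a was not tested.

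Among the FOXO and TGF-beta genes that act on CIP/KIP transcription, Foxo6 rose with age in controls (0.81, adjusted p = 0.0293) and mutants (1.41, adjusted p = 0.000395, limma), Smad3 fell in both (-0.46 and -0.69) and Smad2 fell in mutants (-0.11). The differences between mutants and controls were -0.12, -0.10 and 0.11 for Smad4, with no gene of the list called in these 3 comparisons by limma.

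Of the 10 cell cycle exit genes, limma called 3 higher and 2 lower with age in controls and 4 higher and 1 lower in mutants. In both genotypes Gadd45g (1.01 in controls, 1.31 in mutants), the antiproliferative gene Btg1 (0.70 and 0.91) and the CDK5 activator Cdk5r1 (0.77 and 0.88) rose with age. Fzr1, an activator of the anaphase-promoting complex, fell in both (-0.21 and -0.22). Gadd45a fell in controls (-0.48) and Cdk5 rose in mutants (0.23, adjusted p = 0.0172). Cdkn1b rose over the same step in mutants while Cdkn1a fell. The differences between mutants and controls were -0.058, -0.0073 and 0.15 for Gas1 and -0.16, 0.051 and -0.24 for Btg1, and 0 of 10 were called.

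Cdkn1c lies in an imprinted domain, and 6 of 8 of its neighbours there were tested. 0 of 6 were called with age in either genotype and 0 of 6 between mutants and controls in each comparison. Nap1l4 differed between mutants and controls by -0.034, 0.020 and -0.059 and Cd81 by -0.036, 0.0043 and -0.033, while Cdkn1c differed by 0.21, 0.048 and 0.048. Kcnq1ot1, the noncoding RNA of the domain, averaged 347.3 normalized counts. Phlda2 and Ascl2, which are imprinted in the placenta, averaged 2.68 and 1.4.

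Marker lists of other cell types in the dissection were also compared between mutants and controls. limma called Neurod4, a neurogenic factor, in E12.5 mutants (1.71, adjusted p = 0.0417) and Ebf3, a Cajal-Retzius marker, in E13.5 Sox1Cre mutants (-0.32, adjusted p = 0.0352), 1 of 5 intermediate progenitor and 1 of 7 Cajal-Retzius markers. No marker was called in NestinCre mutants or in the other 9 lists in any of the 3 comparisons. The median difference of the cortical hem list, which Cdkn1a followed, was 0.15, -0.060 and 0.069, and that of the neuronal list, which Cdkn1b followed, was -0.036, 0.11 and 0.11. The choroid plexus list, led by Ttr, had medians of 0.46, 0.026 and -0.16 with sums from 7935 to 89955 over the 24 libraries. The meningeal list, led by Col3a1, had medians of -0.069, -0.30 and -0.18, and the endothelial list, led by Kdr, -0.027, -0.29 and -0.14. Of the 8 ventral telencephalic markers Gsx2 was at 0 in 18 libraries and Nkx2-1 in 14. Dorsal progenitor markers, led by Lhx2 at a mean of 15922 normalized counts, were above 0 in every library.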

How the data were processed

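Archicortex was dissected and snap frozen, and libraries were made with the KAPA mRNA HyperPrep kit and sequenced on an Illumina instrument. Per the labels, the authors used Trimmomatic 0.36, STAR 2.5.2a, RSEM 1.2.31 and DESeq2 on GRCm38. The deposited signal values are gene counts divided by 1 size factor per library; dividing by the smallest step gave whole reads (within 0.01) for 100% of values, and these reads entered the count tests. The strand setting is not given in the sources used here. Of 51912 rows 51719 were named with GENCODE M21. The number of columns of other samples was 0.

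The main test was limma 3.58.1 (R 4.3.3, trended variance) on log2(value + 1) for the 16454 genes at 10 or more in at least 4 of 24 libraries, with 6 group means, 18 residual degrees of freedom and Benjamini-Hochberg adjustment over all genes. A gene was called at an adjusted p under 0.05. Log2 differences are on that scale. edgeR 4.0.16 and DESeq2 1.42.0 on the recovered reads, other pseudocounts (0.5 and 5), filters, quantile normalization, Xist as a covariate, fits to the libraries compared alone and leaving out each library were alternatives. Exact permutation tests (two-sided, 70 assignments, 40 member tests and 15 ratio tests) and 100000 permutations within groups used scipy 1.17.1 (Python 3.11.15), where 1e-05 is the smallest p possible. The fitting code was tested on simulated data. Genes beside the members were named by rule: from each pathway list the called genes, at most the 4 with the largest changes, or else its 2 most abundant, 3 genes most like each member, and the leading gene of each marker list; other marker genes, pathway genes carried over for comparison and single libraries were named after their values were seen. The members and lists were chosen with earlier results of these data known. The values of 1 gene of the lists are not reported here.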

Additional observations from a re-analysis of the deposited data

Results flagged for a closer look

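Among the 48 pairs of a member and a group, 3 held a library far from the other 3 of its group by Dixon's criterion for 4 values, and about 1 pair in 20 would by chance. Ccnd1 stood at 4989 normalized counts in A18, against 1805 to 2049.8 in the other 3 NestinCre mutants. Ccnd1 stood at 3639 in A22, against 2133 to 2206 in the other 3 NestinCre controls. Ccnd2 stood at 32122 in A18, against 47161 to 49219 in the other 3 mutants. In A18 the summed ventral telencephalic markers were 683 and in A22 38.9 normalized counts. Their part in these values was not tested.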

How the results depend on the processing

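The members called were 0 of 8 in every comparison of mutants with controls, their mean and their differences, under each of the 9 other settings and without each library in turn; with A18 and A22 left out together, an alternative chosen after seeing the data, they were 0 of 8 in NestinCre mutants, for the mean and between lines, the 3 it was run for. With age in controls, where limma called 1 (Ccnd3), quantile normalization called 2, DESeq2 2, a fit to only the libraries compared 3 (Ccnd2, Ccnd3 and Cdkn1b) and Xist as a covariate 0; without single libraries the count ran from 0 to 2, and Ccnd3 was lost without A6, A8, A13, A14 or A15. With age in mutants, where limma called 4, the other settings called 3 to 5 and leaving out single libraries 4 to 5. The log2 difference changed sign for Cdkn1b in E13.5 Sox1Cre mutants with Xist as a covariate (0.016), for Ccnd1 in NestinCre mutants in edgeR (0.077) and DESeq2 (0.085), for Ccnd2 (-0.055) and Cdk4 (-0.0075) there under quantile normalization, for Cdkn1a at E12.5 in edgeR (-0.00062), for Cdkn1c between lines in edgeR (-0.010) and DESeq2 (-0.013) and for Ccnd2 between ages with Xist as a covariate (0.041). Without A18 and A22 the NestinCre differences of Cdk4 (-0.00066), Cdkn1a (0.035) and Cdkn1c (-0.028) changed sign; none of these was called, and the cause was not tested. Leaving out single libraries turned the sign of differences that were not called, with ranges of -0.11 to 0.045 for Ccnd3, -0.069 to 0.16 for Cdk6, -0.084 to 0.019 for Cdkn1b, -0.034 to 0.13 for Cdkn1c in E13.5 Sox1Cre mutants; -0.36 to 0.17 for Ccnd1, -0.12 to 0.16 for Ccnd2, -0.014 to 0.035 for Cdk4, -0.10 to 0.050 for Cdkn1a, -0.0088 to 0.13 for Cdkn1c in NestinCre mutants; -0.18 to 0.11 for Ccnd1, -0.22 to 0.042 for Ccnd2, -0.013 to 0.14 for Cdk6, -0.064 to 0.10 for Cdkn1a in E12.5 mutants; -0.42 to 0.11 for Ccnd1, -0.14 to 0.0084 for Ccnd3, -0.082 to 0.087 for Cdkn1c for the difference between lines; -0.36 to 0.032 for Ccnd1, -0.085 to 0.032 for Cdk4, -0.14 to 0.089 for Cdk6 for the difference between ages. The log2 differences of ratios ranged, without single libraries, for Ccnd2 to Ccnd1 from -0.20 to 0.31 in E13.5 Sox1Cre mutants, -0.28 to 0.52 in NestinCre mutants, -0.24 to 0.14 in E12.5 mutants, 1.16 to 1.63 with age in controls, 1.2 to 1.71 with age in mutants; for Cdk6 to Cdk4 from 0.24 to 0.37 in NestinCre mutants, -0.19 to 0.028 with age in mutants; for Cdkn1c to Cdkn1b from -0.0016 to 0.18 in E13.5 Sox1Cre mutants, 0.32 to 0.43 in E12.5 mutants, -0.28 to -0.10 with age in mutants. Over all genes DESeq2 called 358 against 152 in E13.5 Sox1Cre mutants, 37 against 11 in NestinCre mutants, 298 against 119 at E12.5, 712 against 415 for the mean, 98 against 7 between lines and 20 against 0 between ages. Fits to only the libraries compared called 44, 10 and 76 in the first 3, 13 between lines and 2133 against 4263 with age in mutants, and Xist as a covariate left 0 of 1892 with age in controls. edgeR called 146, 5 and 106 in the first 3. In NestinCre mutants the other filters called 5, and Xist as a covariate or leaving out A18 and A22 2. Without single libraries these counts ran from 90 (without A3) to 510 (without A1) in E13.5 Sox1Cre mutants, 2 (without A18) to 7 (without A23) in NestinCre mutants, 50 (without A13) to 139 (without A11) at E12.5, 308 (without A13) to 987 (without A1) for the mean, 5 (without A3) to 144 (without A1) between lines, 794 (without A6) to 2629 (without A5) with age in controls. No paired analysis was possible because the labels give the groups no shared replicate numbers. The precision is that of 4 libraries a group, as the printed intervals give it, and Ccnd1 and Ccnd2 had the widest.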
